A study of Mus musculus with 16 samples.

Results

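Classical monocytes and conventional type 2 dendritic cells (cDC2s) taken from the spleens of mice treated with the myeloid growth factor GM-CSF (granulocyte-macrophage colony-stimulating factor) were compared by RNA sequencing. The monocytes were the population the study names P-I, sorted as CD11b+ CD115-high Ly6C+ cells. The GM-CSF cDC2s were sorted as lineage-negative CD11c-high MHC II+ cells that were XCR1- and 33D1+. The comparison rests on 4 of the 16 libraries of the series, 2 of P-I and 2 of GM-CSF cDC2s, chosen by their sample labels. The mice were C57BL/6, 12 weeks old, without a transgene, and received GM-CSF once daily for 3 days. The study gives separate mice as replicates. The other 12 libraries were used for the spread between replicates and, for named genes, for levels in control cDC2s (33D1+ cells of untreated mice), in P-III and P-IV (CD115-high, Ly6C-negative, MHC II+ cells of treated mice, P-III negative and P-IV positive for CD301b) and in DC-Xs (XCR1- 33D1- cells of the DC gate of treated mice, described by the study as mostly P-IV with some P-III). Levels in cDC1s (XCR1+ 33D1- cells of the DC gate, from control and treated mice) are also shown. The P-I gate did not exclude MHC II+ cells.

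Classical monocytes are made in the bone marrow, depend on signals through CD115, the receptor for macrophage colony-stimulating factor, and leave the marrow through the chemokine receptor CCR2. They carry lysozyme and other antimicrobial proteins, take up particles through Fc and scavenger receptors, and can become macrophages or DC-like cells in tissue. cDC2s arise from DC progenitors that depend on FLT3, hold the transcription factor ZBTB46, and in the spleen include ESAM+ CD4+ cells that depend on Notch2 signalling in the marginal zone and bridging channels. They load peptides on MHC class II and present them to CD4+ T cells.

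Values are FPKM, fragments scaled to transcript length and to all mapped fragments of the library, which corrects for transcript length and library size. Fold changes are differences of mean log2(FPKM + 1), P-I minus GM-CSF cDC2s, so they understate the change of genes with low FPKM. A gene was called with a Benjamini-Hochberg adjusted p under 0.05 in limma and a log2 fold change of at least 1 in size, and "higher" and "lower" below refer to P-I. Of 24532 genes in the table, 11335 reached an FPKM of 1 in 2 or more of the 16 libraries and were tested, and 1818 of them were called. P-I had 1111 genes higher (9.80%) and 707 lower (6.24%), and the median log2 fold change of all genes tested was 0.00. The counts called in each gene list below are to be read beside these shares of 9.80% higher and 6.24% lower. The plot of mean expression in both populations shows called genes over the whole range of levels. Replicates of P-I differed less from each other (SD 0.218 in log2 units) than those of GM-CSF cDC2s (SD 0.421). Over all groups this SD was 0.135 to 0.218 in the CD115-high gate and 0.362 to 0.517 in the DC gate. The GM-CSF cDC2 libraries are numbered 10 and 92 and the P-I libraries 119 and 123. Depth, read from the steps between low FPKM values, was about 28060000 and 35330000 fragments in P-I and 39640000 in GM-CSF cDC2 replicate 2, and is unknown for replicate 1. All libraries of the CD115-high gate have other library numbers than those of the DC gate, and any difference of preparation between the gates cannot be told apart from the cell type in these 4 libraries. Between P-IV and DC-Xs, which share no library with the comparison and were described as largely the same cells taken through the CD115 and the DC gates, 222 genes were called (1.96%). Of these, 92 were also called in the same direction between P-I and GM-CSF cDC2s, 41.4% of the P-IV and DC-X calls and 5.06% of the P-I and cDC2 calls. A further 5 were called in the opposite direction. The remaining 1726 P-I and cDC2 calls were not called in the same direction there. A gene that was not called between P-IV and DC-Xs can still differ between the gates. In bulk libraries, fewer cells with a gene's RNA and less of that RNA per cell cannot be told apart.

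**Figure D1:**
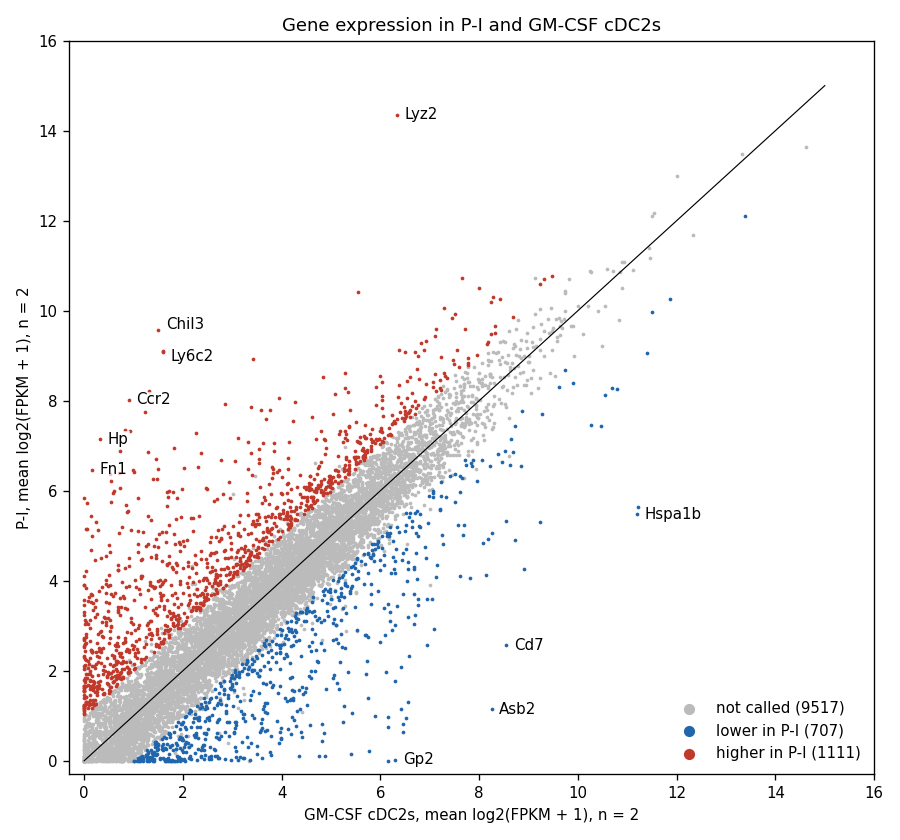
Mean log2(FPKM + 1) of 2 GM-CSF cDC2 libraries (horizontal) against 2 P-I libraries (vertical) for the 11335 genes tested, with the 1111 genes called higher in P-I in red, the 707 called lower in blue and the others in grey; 10 of the genes with the largest changes are labelled. Chil3 and Lyz2 lie farthest above the diagonal and Asb2 farthest below it among them.

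Of the surface proteins used for sorting, CD115, Ly6C, 33D1 and CD11c were mirrored by their transcripts. This is a check of the labels and not a finding. Of 11 sort gate genes tested 4 were higher, 4 lower and 3 not called. Csf1r, which encodes CD115, stood at 381 and 396 FPKM in P-I and 36.3 and 39.6 FPKM in GM-CSF cDC2s, and Ly6c2 at 374 and 803 FPKM and 1.97 and 2.05 FPKM. Clec4a4, which encodes the 33D1 antigen, stood at 7.05 and 5.95 FPKM in P-I and 77.5 and 72.2 FPKM in GM-CSF cDC2s. Itgax, the CD11c gene, was at 64.5 and 50.4 FPKM in P-I and 155 and 162 FPKM in GM-CSF cDC2s (log2 fold change -1.46 ± 0.31 SE, adjusted p = 0.00435, and 0.0501 without P-I replicate 2). Itgam, the CD11b gene, reached 128 and 135 FPKM in P-I and 66.9 and 64.3 FPKM in GM-CSF cDC2s, just under the 2-fold rule (log2 fold change 0.99 ± 0.21 SE, adjusted p = 0.00401), and passed it without P-I replicate 1 or GM-CSF cDC2 replicate 1 (log2 fold changes 1.03 and 1.02). Sirpa, the CD172a gene often used to mark cDC2s, was at 315 and 305 FPKM in P-I and 268 and 313 FPKM in GM-CSF cDC2s and was not called (log2 fold change 0.10, 95% interval -0.52 to 0.71, adjusted p = 0.853). The libraries were thus apart in the transcripts of CD115, Ly6C and 33D1 and overlapped in that of CD172a.

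Genes of classical monocytes were higher in P-I. Of 25 members tested, 23 were higher and 0 lower, with a median log2 fold change of 3.53 beside 0.00 over all genes. Ccr2, the receptor with which monocytes answer the chemokine CCL2, was at 247 and 269 FPKM in P-I and 1.23 and 0.566 FPKM in GM-CSF cDC2s (log2 fold change 7.11 ± 0.35 SE, adjusted p = 6.40e-08). The lower P-I library was 201-fold above the higher cDC2 library. F13a1, the A subunit of coagulation factor XIII, was listed at 0 in both cDC2 libraries and at 33.9 and 92.5 FPKM in P-I (adjusted p = 1.66e-06). Vcan, the proteoglycan versican, was likewise listed at 0 in both cDC2 libraries and at 5.47 and 5.78 FPKM in P-I (adjusted p = 1.41e-07). Fn1, fibronectin, was at 76.2 and 99.4 FPKM in P-I against 0.205 and 0.0385 FPKM (log2 fold change 6.30 ± 0.25 SE, adjusted p = 1.61e-08). The P-I libraries were not equal for every gene of the list: Ly6c2, F13a1 and Hp were higher in replicate 2, and Chil3 in replicate 1. None of these overlapped with the cDC2 libraries, as was the case for 64.9% of all genes tested. Ly6c1 and Ly6c2 are close copies, so the split of reads between them is uncertain.

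Promoters of 3 genes higher in P-I are shown, picked because each holds the core of the binding motif of PU.1, the myeloid transcription factor whose own gene Spi1 was at 507 and 485 FPKM in P-I and 438 and 481 FPKM in GM-CSF cDC2s and was not called (log2 fold change 0.11, 95% interval -0.26 to 0.49, adjusted p = 0.701). Each run is the 150 bases before the most upstream start that RefSeq (GRCm38.p6) lists for the gene, 5′ to 3′ on the strand of the gene, with matches to GAGGAA or its reverse complement in capitals. F13a1 lies at chr13:37050245-37050394 on the minus strand, with 1 further start listed downstream. Fcgr1 and S100a8, which encode CD64 and a subunit of calprotectin and are described further on, have 1 listed start each, with the runs at chr3:96293970-96294119 on the minus strand and chr3:90668921-90669070 on the plus strand.
F13a1: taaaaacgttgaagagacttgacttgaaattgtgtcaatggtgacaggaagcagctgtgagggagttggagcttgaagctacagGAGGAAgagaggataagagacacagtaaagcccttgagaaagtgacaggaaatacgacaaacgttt
Fcgr1: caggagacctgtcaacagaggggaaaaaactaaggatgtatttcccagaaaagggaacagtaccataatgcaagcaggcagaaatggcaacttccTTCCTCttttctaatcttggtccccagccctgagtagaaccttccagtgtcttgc
S100a8: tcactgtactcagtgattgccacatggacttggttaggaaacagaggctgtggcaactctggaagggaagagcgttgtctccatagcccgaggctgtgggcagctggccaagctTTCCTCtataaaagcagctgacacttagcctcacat
In F13a1 the core starts 66 bases before the start, and on the other strand it starts 55 bases before it in Fcgr1 and 36 in S100a8. Over the 250 bases before any listed start, on both strands, GAGGAA was found in 26.1% of the 9009 tested genes with a promoter sequence, in 31.3% of the 879 with one that were higher in P-I and in 30.0% of the 540 that were lower. The C/EBP motif TTGCNNAA, read in the same way, was found in 9.10% of all, 12.97% of the higher and 10.0% of the lower genes. A match says only that these letters stand there.

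By the rule for named genes, Chil3 and Lyz2 had the largest log2 fold changes in favour of P-I. Lyz2, the lysozyme of macrophages and monocytes, was at 19234 and 22664 FPKM in P-I and 100.2 and 63.7 FPKM in GM-CSF cDC2s (log2 fold change 8.01 ± 0.34 SE, adjusted p = 2.11e-08). Chil3, a chitinase-like secreted protein, was at 938 and 619 FPKM in P-I and 1.86 and 1.81 FPKM in GM-CSF cDC2s (log2 fold change 8.07 ± 0.48 SE, adjusted p = 2.15e-07). Its close copy Chil4 was listed at 10.8 FPKM in P-I replicate 1 and at 0 in the other 3 libraries, so reads of this pair may have been split, as may those of Lyz1 and Lyz2. Capg, which caps actin filaments, was at 643 and 450.3 FPKM in P-I and 2.08 and 1.99 FPKM in GM-CSF cDC2s (log2 fold change 7.47 ± 0.32 SE, adjusted p = 2.11e-08). For Lyz2, Chil3 and Capg the lower P-I library was 192-fold, 332-fold and 216-fold above the higher cDC2 library.
The remaining genes by that rule were Ly6c2, Ccr2, Fn1, Lyz1, Tppp3, Hp (haptoglobin, which binds free haemoglobin), Ms4a6d, Pdlim1 and Mgst1 (a microsomal glutathione transferase), with log2 fold changes of 6.15 to 7.51.

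**Figure D2:**
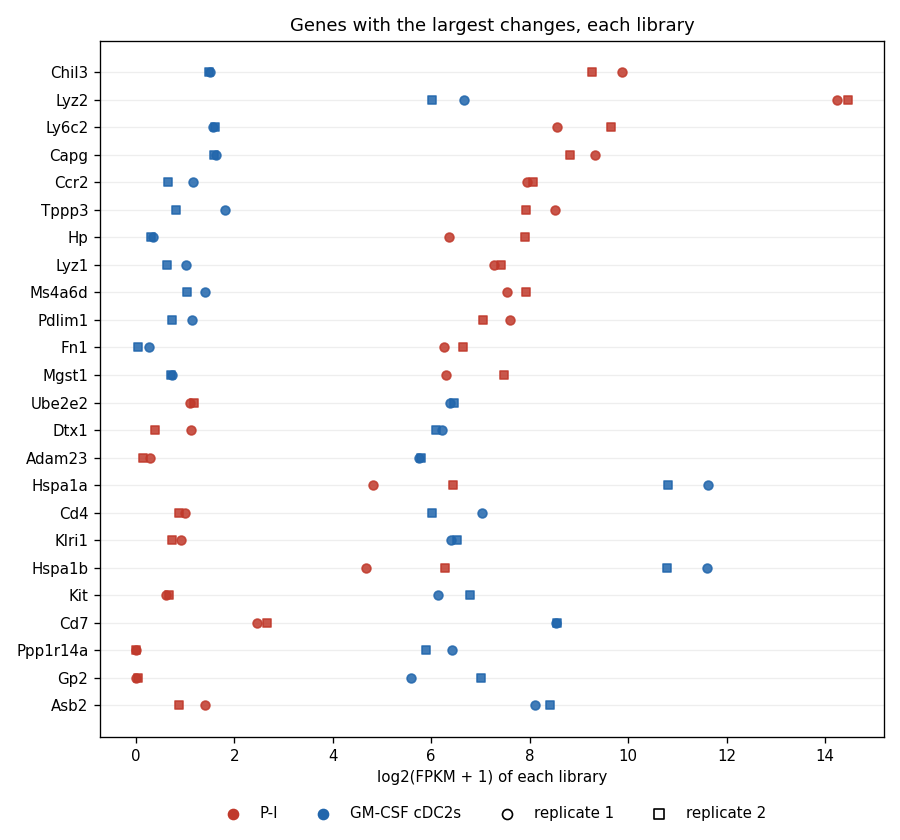
FPKM on a log2(FPKM + 1) axis of the 12 genes with the largest log2 fold change in each direction by the rule for named genes, 1 point for each library (P-I red, GM-CSF cDC2s blue, replicate 1 as circles and replicate 2 as squares). For all 24 genes the P-I points lie apart from the cDC2 points, because the rule asked for groups that do not overlap.

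Of the granule and antimicrobial genes, 21 of 22 tested were higher and 0 lower (median log2 fold change 2.95). Besides lysozyme, S100a8 and S100a9, subunits of calprotectin, a protein that withholds metal ions from microbes, were higher. S100a8 stood at 53.3 and 107 FPKM in P-I and 1.86 and 1.72 FPKM in GM-CSF cDC2s (log2 fold change 4.78 ± 0.37 SE, adjusted p = 1.44e-06). Lcn2, lipocalin 2, which binds bacterial siderophores, was at 15.2 and 47.1 FPKM in P-I and 0.248 and 0.629 FPKM in GM-CSF cDC2s (log2 fold change 4.29 ± 0.38 SE, adjusted p = 4.57e-06). The groups overlapped for neither gene, as was the case for 64.9% of all genes tested, and both stood higher in P-I replicate 2 than in replicate 1, with both cDC2 libraries under 2 FPKM. The primary granule proteases and peroxidase, which are made in granulocyte and monocyte precursors, differed between the P-I mice. Elane stood at 5.46 and 36.9 FPKM, Mpo at 5.18 and 39.02 FPKM and Prtn3 at 3.54 and 27.6 FPKM in P-I, against 0.477 and 3.32 FPKM, 0.862 and 3.91 FPKM and 0 and 1.004 FPKM in GM-CSF cDC2s. All 3 were called (adjusted p = 0.0133, 0.0410 and 0.00384), Prtn3 also in each fit without 1 of the 4 libraries. Without P-I replicate 2 the adjusted p of Elane was 0.148 and that of Mpo 0.402, and without GM-CSF cDC2 replicate 1 they were 0.133 and 0.260. The markers of neutrophils moved with these genes: 11 of 11 tested were higher. All 14 listed, tested or not, had a summed FPKM of 192 and 372 in P-I and 8.11 and 16.1 in GM-CSF cDC2s. Of the genes that define mature neutrophils, Ly6g was at 1.21 and 0.960 FPKM in P-I and at 0 in both GM-CSF cDC2 libraries. Cxcr2 was at 0.916 and 0.985 FPKM in P-I and 0 and 0.0172 FPKM in GM-CSF cDC2s. Both were too low to be tested. Several others in the list (S100a8, S100a9, Csf3r) are also made by classical monocytes. The part of neutrophils in these values was not tested.

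The Fc receptor, Toll-like receptor and core macrophage genes that were called were higher in P-I. Of 9 Fc receptor genes 5 were higher and 0 lower, of 20 Toll-like receptors and adaptors 6 and 0, and of 27 genes of the core macrophage list 20 and 0 (median log2 fold change 2.08). Fcgr3, the activating receptor CD16, stood at 522 and 458 FPKM in P-I and 15.7 and 5.90 FPKM in GM-CSF cDC2s (log2 fold change 5.51 ± 0.53 SE, adjusted p = 8.04e-06). Fcgr2b, the inhibitory receptor, stood at 697 and 592 FPKM in P-I and 140.3 and 102 FPKM in GM-CSF cDC2s (log2 fold change 2.41 ± 0.24 SE, adjusted p = 1.31e-05). Fcgr1, the high-affinity receptor CD64 often used to tell monocyte-derived cells from DCs, was at 12.7 and 21.03 FPKM and 0.539 and 0.313 FPKM (log2 fold change 3.61 ± 0.27 SE, adjusted p = 1.10e-06). Both activating and inhibitory members were thus higher. No library of P-I overlapped with one of cDC2s for any of the 3, as was the case for 64.9% of all genes tested. Among sensors of nucleic acid, Tlr8 was at 15.8 and 20.2 FPKM in P-I and 0.722 and 0.486 FPKM in GM-CSF cDC2s (log2 fold change 3.56 ± 0.30 SE, adjusted p = 2.53e-06). Irak3, a brake on Toll-like receptor signalling, was at 19.3 and 19.3 FPKM and 0.497 and 0.744 FPKM (log2 fold change 3.65 ± 0.22 SE, adjusted p = 2.35e-07). Of 20 inflammasome and cytosolic sensor genes 4 were higher (2 without P-I replicate 2) and 0 lower, among them Pycard, the adaptor ASC (1.35 ± 0.27 on the log2 scale, adjusted p = 0.00292). Nlrp3, at 1.99 and 4.06 FPKM in P-I and 11.7 and 3.32 FPKM in GM-CSF cDC2s, was not called (adjusted p = 0.393).

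C-type lectins and paired receptors divided between the populations. Of 27 lectin genes, 9 were higher and 4 lower. Clec7a, which encodes dectin-1 and binds fungal glucans, stood at 342 and 390.2 FPKM in P-I and 50.8 and 14.8 FPKM in GM-CSF cDC2s (log2 fold change 3.68 ± 0.52 SE, adjusted p = 2.09e-04). Clec12a, an inhibitory receptor, stood at 171 and 212 FPKM and 12.8 and 11.1 FPKM (log2 fold change 3.89 ± 0.24 SE, adjusted p = 2.83e-07). Neighbouring members of the Clec4a family went opposite ways: Clec4a3 stood at 540.0 and 579.9 FPKM in P-I and 85.3 and 78.2 FPKM in GM-CSF cDC2s (log2 fold change 2.76 ± 0.32 SE, adjusted p = 4.22e-05), and Clec4a4 was lower (-3.34 ± 0.18). These genes are alike in sequence, so the split of reads between them is uncertain. Cd209a, which encodes a DC-SIGN-like lectin, was lower, at 40.3 and 21.4 FPKM in P-I and 325 and 257 FPKM in GM-CSF cDC2s (log2 fold change -3.25 ± 0.27 SE, adjusted p = 2.47e-06). Of 32 genes of the SIRP, CD200, CD300, LILR and PIR families with related receptors, 14 were higher and 3 lower. Lilrb4a, an inhibitory receptor, was at 167 and 144 FPKM and 6.22 and 2.16 FPKM (log2 fold change 5.03 ± 0.38 SE, adjusted p = 1.32e-06). The 3 lower genes were sialic acid-binding receptors, Cd22, Siglecg and Siglecf, with log2 fold changes of -2.99, -2.80 and -1.58 (adjusted p = 2.78e-06, 1.11e-05 and 1.64e-04). Cd22, an inhibitory receptor best known from B cells, was at 55.5 and 49.5 FPKM in GM-CSF cDC2s and 5.06 and 6.44 FPKM in P-I. Of 19 scavenger receptor genes 9 were higher and 2 lower (4 lower without GM-CSF cDC2 replicate 2, 1 without replicate 1 of GM-CSF cDC2s or replicate 2 of P-I), led by Msr1, scavenger receptor A, at 37.6 and 47.1 FPKM and 0.0892 and 0.108 FPKM (log2 fold change 5.29 ± 0.42 SE, adjusted p = 1.84e-06).

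Genes of non-classical monocytes, the patrolling cells that arise from classical ones, were also more abundant in P-I for 6 of 14 tested, with 1 lower (0 without P-I replicate 1, P-I replicate 2 or GM-CSF cDC2 replicate 1). Ace, which encodes angiotensin-converting enzyme, stood at 30.6 and 48.9 FPKM in P-I and 0.254 and 0.105 FPKM in GM-CSF cDC2s (log2 fold change 5.08 ± 0.24 SE, adjusted p = 4.43e-08). Adgre4, an adhesion receptor of the F4/80 family, stood at 91.8 and 141 FPKM and 12.3 and 7.15 FPKM (log2 fold change 3.47 ± 0.41 SE, adjusted p = 4.92e-05). Of the MS4A and TMEM176 membrane proteins 6 of 11 were higher, led by Ms4a6d at 185 and 243 FPKM and 1.65 and 1.06 FPKM and Ms4a8a at 31.1 and 38.5 FPKM and 0.0601 and 0.0218 FPKM (log2 fold changes 6.51 and 5.10, adjusted p = 1.61e-08 and 1.75e-07). Tmem176a and Tmem176b were lower (-1.18 and -1.07), but 1 of these calls or both were lost without P-I replicate 1 or without either GM-CSF cDC2 library (1, 1 and 0 calls left).
Of 16 genes of type 2 responses and alternative activation 5 were higher and 2 lower. Clec10a and Mgl2, which encode the galactose-binding lectins CD301a and CD301b, were both higher, Mgl2 at 32.6 and 20.5 FPKM in P-I and 2.70 and 1.14 FPKM in GM-CSF cDC2s (log2 fold change 3.25 ± 0.32 SE, adjusted p = 1.18e-05) and Clec10a at 58.1 and 51.8 FPKM and 8.07 and 3.66 FPKM (3.10 ± 0.27 SE, adjusted p = 3.72e-06). These copies are alike in sequence, so the split of reads is uncertain. Mgl2 averaged 788 FPKM in P-IV, the population sorted for CD301b.

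Integrins and adhesion molecules divided evenly, with 7 of 26 higher and 7 lower (4 lower without GM-CSF cDC2 replicate 2 and 3 without P-I replicate 2). Itgb5, the beta chain of a vitronectin receptor, stood at 17.2 and 27.96 FPKM in P-I and 1.34 and 1.77 FPKM in GM-CSF cDC2s (log2 fold change 3.17 ± 0.25 SE, adjusted p = 1.61e-06), and Itga5, a chain of the fibronectin receptor, at 14.5 and 15.4 FPKM and 1.58 and 2.08 FPKM (2.50 ± 0.25 SE, adjusted p = 1.27e-05). Among the lower genes Pecam1, which encodes CD31, stood at 6.03 and 3.82 FPKM and 25.2 and 20.03 FPKM (-2.01 ± 0.36 SE, adjusted p = 0.00137) and the tetraspanin gene Cd81 at 16.8 and 26.05 FPKM and 63.7 and 61.9 FPKM (-1.54 ± 0.24 SE, adjusted p = 4.42e-04).

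Genes of cDCs were lower in P-I. Of 24 pan-cDC genes 13 were lower and 1 higher, with a median log2 fold change of -1.22. Flt3, the receptor for the growth factor of DC progenitors, was at 3.36 and 4.78 FPKM in P-I and 103 and 85.8 FPKM in GM-CSF cDC2s (log2 fold change -4.25 ± 0.23 SE, adjusted p = 1.22e-07). Kit, the stem cell factor receptor, was at 0.523 and 0.597 FPKM in P-I and 69.1 and 110.3 FPKM in GM-CSF cDC2s (log2 fold change -5.82 ± 0.35 SE, adjusted p = 2.52e-07). Zbtb46, the transcription factor that marks cDCs, was at 6.95 and 5.10 FPKM and 62.4 and 71.8 FPKM (log2 fold change -3.29 ± 0.28 SE, adjusted p = 2.88e-06). P-I held Kit under 1 FPKM in both libraries, whereas Flt3 and Zbtb46 were low but above 3 FPKM. Ccr7, the receptor that guides DCs into T cell zones, was at 8.12 and 5.36 FPKM in P-I and 161 and 112 FPKM in GM-CSF cDC2s (log2 fold change -4.15 ± 0.51 SE, adjusted p = 6.91e-05). Ccr7 was also called lower in P-IV than in DC-Xs (log2 difference -2.58 ± 0.51, adjusted p = 0.0214). The part of the sorting gate in its value was not tested. The 1 higher gene of the list was Rab7b, a small GTPase of late endosomes, at 12.9 and 14.9 FPKM in P-I and 1.84 and 1.21 FPKM in GM-CSF cDC2s (log2 fold change 2.57 ± 0.21 SE, adjusted p = 2.47e-06). Rab7b averaged 213 FPKM in control and 232 FPKM in GM-CSF cDC1s, and 0.164 FPKM in control cDC2s. Within the cDCs of these libraries it was high in cDC1s only. Dpp4, which encodes CD26, was at 33.1 and 32.1 FPKM and 65.4 and 58.1 FPKM and fell short of the 2-fold rule (log2 fold change -0.90 ± 0.20 SE, adjusted p = 0.00552, and -1.03 with quantile normalization).

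Genes of the Notch2-dependent cDC2s of the spleen were lower in P-I for 12 of 19 tested and higher for 0, with a median log2 fold change of -2.24. Esam, an adhesion molecule of these cells, was at 0.114 and 0.107 FPKM in P-I and 43.998 and 39.3 FPKM in GM-CSF cDC2s (log2 fold change -5.26 ± 0.32 SE, adjusted p = 2.61e-07). Dtx1, a target and modulator of Notch, was at 1.17 and 0.311 FPKM and 73.7 and 67.6 FPKM (log2 fold change -5.41 ± 0.30 SE, adjusted p = 1.41e-07). Cd4, the coreceptor that these DCs share with helper T cells, was at 0.997 and 0.844 FPKM and 130.2 and 63.5 FPKM (log2 fold change -5.58 ± 0.35 SE, adjusted p = 2.88e-07). All 3 were at or under about 1 FPKM in both P-I libraries, and Cd3e and Cd3g, which mark T cells, were under 2 FPKM in both cDC2 libraries. Notch2 itself, at 10.9 and 11.04 FPKM in P-I and 6.502 and 5.37 FPKM in GM-CSF cDC2s, was not called (log2 fold change 0.79, adjusted p = 0.0884). Tbx21, which encodes T-bet, was at 0.585 and 0.266 FPKM and 16.5 and 13.3 FPKM (log2 fold change -3.48 ± 0.24 SE, adjusted p = 6.11e-07). Relb, an NF-kB subunit needed for these cDC2s, was at 28.9 and 33.5 FPKM and 139.9 and 163 FPKM (log2 fold change -2.24 ± 0.34 SE, adjusted p = 3.77e-04).
The largest decrease by the rule for named genes was that of Asb2, part of a ubiquitin ligase, at 1.65 and 0.847 FPKM in P-I and 273 and 339.8 FPKM in GM-CSF cDC2s (log2 fold change -7.11 ± 0.46 SE, adjusted p = 3.12e-07). Ppp1r14a, an inhibitor of myosin phosphatase, was listed at 0 in both P-I libraries and at 84.3 and 58.3 FPKM in GM-CSF cDC2s (adjusted p = 2.24e-07). The other genes of these 12 were Gp2, Cd7, Kit, Klri1, Cd4, Adam23, Dtx1, Ube2e2, Hspa1a and Hspa1b.

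Levels in control cDC2s are given for the cDC2 genes named above. Gp2, an anchored glycoprotein, was at 6.65 FPKM on average in control cDC2s and at 47.3 and 128 FPKM in GM-CSF cDC2s, higher after treatment (log2 difference 3.42 ± 0.45, adjusted p = 9.99e-04). Dtx1 fell with treatment, from 201 FPKM on average in control cDC2s (log2 difference -1.48 ± 0.30, adjusted p = 0.0118), and Clec4a4 did too, from 151 FPKM (-1.004 ± 0.18, adjusted p = 0.00647). Ccr7 and Relb also fell, from 506 and 357 FPKM (log2 differences -1.89 ± 0.51 and -1.24 ± 0.34, adjusted p = 0.0435 and 0.0460). For Flt3, Kit, Zbtb46, Esam, Cd4, Tbx21 and Asb2 the averages in control cDC2s were 91.7, 86.4, 104, 66.4, 100, 25.4 and 447 FPKM, and treated and control cDC2s were not called different. Over all genes, 3.21% were called higher and 2.06% lower in GM-CSF than in control cDC2s. Among other genes named in the text, Gsr, Cx3cr1, Irf8, Csf3r, Egr1, Tmem176a and Tmem176b were called lower in GM-CSF than in control cDC2s. Their log2 differences ran from -2.06 (Egr1) to -1.14 (Csf3r). Fcgr2b, Clec10a, Clec4a3, Rab7b, Siglecf and Mcpt8 were called higher, as were Ccl6 and Ccl9. The 2 comparisons share the GM-CSF cDC2 libraries.

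**Figure D3:**
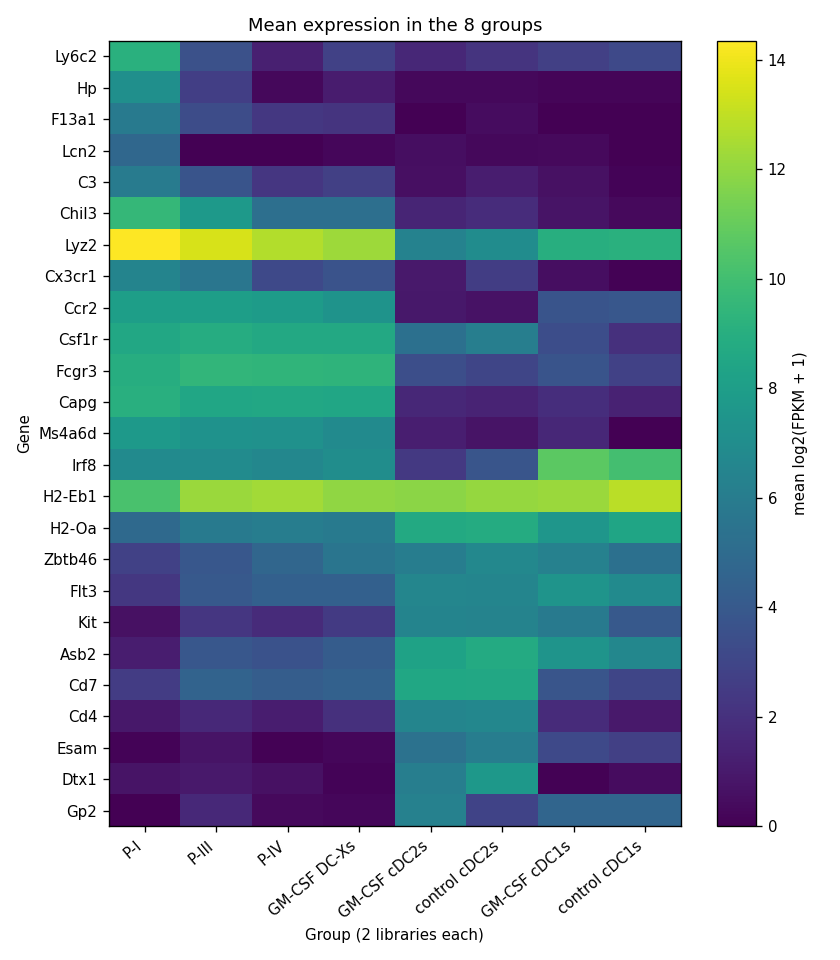
Mean log2(FPKM + 1) over 2 libraries in each of the 8 groups (columns) for 25 genes discussed in the text (rows), on 1 colour scale. Csf1r, Ccr2, Fcgr3 and Ms4a6d are high in P-I, P-III, P-IV and DC-Xs, whereas Ly6c2, Hp, F13a1 and Lcn2 are highest in P-I, and Flt3, Kit, Cd4, Esam and Dtx1 are highest in cDC2s or cDC1s. P-I, P-III and P-IV were sorted by CD115 (Csf1r) and Ly6C (Ly6c2).

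Compared with P-III and P-IV of the same CD115-high gate, the genes higher in P-I fell into those that the Ly6C-negative cells also held and those that they did not. Over all genes, 2.53% were called higher and 0.979% lower in P-I than in P-III, and 4.86% higher and 2.43% lower than in P-IV. Ly6c2 averaged 11.3 FPKM in P-III and 1.44 in P-IV, and P-I was higher than P-III (log2 difference 5.53, adjusted p = 1.33e-04) and than P-IV (7.84, adjusted p = 2.65e-06). The populations were sorted by Ly6C, so this difference restates the gate and is not a finding. Hp averaged 5.22 and 0.219 FPKM there, with log2 differences of 4.50 and 6.85 (adjusted p = 4.39e-05 and 6.84e-07). By contrast Ccr2 averaged 262 FPKM in P-III and 238 in P-IV, and P-I was not called different from either (adjusted p = 1.00 and 0.968). Fcgr3, Capg and Ms4a6d were also not called in either comparison. Nor was Csf1r, but P-I, P-III and P-IV were all sorted as CD115-high. Chil3, Lyz2 and Cx3cr1, the fractalkine receptor, lay between these cases: they were higher in P-I than in P-IV (log2 differences 4.34, 1.66 and 3.27, adjusted p = 9.13e-05, 0.00695 and 2.67e-05) and not called against P-III. These comparisons share the P-I libraries with the main one.

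Transcripts of MHC class II were abundant in both populations, and more of the genes called were lower in P-I than higher. Of 18 genes of class II presentation 7 were lower and 2 higher (1 without GM-CSF cDC2 replicate 1; median log2 fold change -0.79). H2-Eb1 stood at 1078 and 1372 FPKM in P-I and 3643 and 3803 FPKM in GM-CSF cDC2s (log2 fold change -1.61 ± 0.23 SE, adjusted p = 2.04e-04). H2-Ab1 stood at 4183 and 4625 FPKM and 10196 and 11223 FPKM (log2 fold change -1.28 ± 0.22 SE, adjusted p = 0.00102, and 0.302 when genes with low values were kept in the fit). H2-Aa, at 3199 and 3384 FPKM and 4801 and 5582 FPKM, was not called (log2 fold change -0.65, adjusted p = 0.0702). The invariant chain gene Cd74, at 12204 and 13331 FPKM and 21013 and 30152 FPKM, was not called either (log2 fold change -0.98, adjusted p = 0.0623), but passed with quantile normalization (-1.05) or with the length trend removed (-1.21). The accessory genes differed more. H2-Oa, a subunit of the modulator of peptide loading, was at 23.1 and 36.7 FPKM in P-I and 369 and 483 FPKM in GM-CSF cDC2s (log2 fold change -3.81 ± 0.25 SE, adjusted p = 4.02e-07). H2-Ob, its partner, was at 10.4 and 11.6 FPKM and 130.0 and 114 FPKM (log2 fold change -3.35 ± 0.18 SE, adjusted p = 9.17e-08). Ciita, the transactivator of class II genes, was at 56.6 and 48.8 FPKM and 182 and 183 FPKM (log2 fold change -1.77 ± 0.31 SE, adjusted p = 0.00128). Ctss, which encodes the protease cathepsin S, was one of the 2 higher genes, at 1631 and 1886 FPKM and 703 and 727 FPKM (log2 fold change 1.29 ± 0.19 SE, adjusted p = 3.16e-04).
In P-III and P-IV, H2-Eb1 averaged 4611 and 5316 FPKM, and P-I was lower than both (log2 differences -1.92 and -2.13, adjusted p = 4.59e-04 and 6.93e-05); those populations were sorted as MHC II+.

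Of 16 costimulatory and coinhibitory genes 7 were lower and 1 higher (2 without replicate 1 of either group; median -0.93). Cd83, which stabilises class II at the surface, varied between the libraries, at 9.36 and 26.2 FPKM in P-I and 429 and 116 FPKM in GM-CSF cDC2s (log2 fold change -3.74 ± 0.69 SE, adjusted p = 0.00161). Cd40, the receptor for T cell help, was steadier, at about 20 FPKM in both P-I libraries and at 44.4 and 43.8 FPKM in GM-CSF cDC2s (log2 fold change -1.10 ± 0.20 SE, adjusted p = 0.00134). Pdcd1lg2, which encodes PD-L2, was at 1.07 and 1.38 FPKM and 12.8 and 9.81 FPKM (log2 fold change -2.46 ± 0.30 SE, adjusted p = 6.09e-05). Cd86 was at 24.2 and 24.2 FPKM in P-I and 39.99 and 40.4 FPKM in GM-CSF cDC2s and was not called (log2 fold change -0.71, adjusted p = 0.0571). Of 14 class I presentation genes 1 was higher (0 without replicate 1 of either group) and 1 lower (0 without GM-CSF cDC2 replicate 2 or either P-I library).

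Among transcription factors, Irf8 was higher in P-I and Zbtb46, Relb and Tbx21 were lower. Of 24 factors of monocytes and macrophages 4 were higher and 3 lower, and of 22 factors of DCs 2 were higher and 7 lower. Over all genes 9.80% were higher and 6.24% lower. Irf8, needed for monocyte and cDC1 development, was at 109 and 119.5 FPKM in P-I and 5.40 and 3.19 FPKM in GM-CSF cDC2s (log2 fold change 4.47 ± 0.37 SE, adjusted p = 2.44e-06). In control cDC2s Irf8 averaged 14.2 FPKM, and GM-CSF cDC2s were lower (log2 difference -1.42 ± 0.37, adjusted p = 0.0376). Irf4, a factor of cDC2s, was at 11.2 and 8.53 FPKM in P-I and 10.1 and 9.54 FPKM in GM-CSF cDC2s (95% interval of the log2 difference -0.56 to 0.55). Irf8 thus differed by far more than the replicates did and Irf4 overlapped. Zeb2, which acts in both lineages, was at 27.4 and 29.2 FPKM and 6.21 and 3.69 FPKM (log2 fold change 2.33 ± 0.31 SE, adjusted p = 1.33e-04). Pparg, a lipid-sensing nuclear receptor that GM-CSF induces in alveolar macrophages, was at 10.03 and 12.8 FPKM and 0.737 and 0.740 FPKM (log2 fold change 2.83 ± 0.25 SE, adjusted p = 4.52e-06). Runx3 and Zeb1 were lower (log2 fold changes -1.62 and -1.88, adjusted p = 0.00185 and 6.66e-04). Cebpb, a factor of monocyte survival, was at 59.97 and 157 FPKM in P-I and 32.3 and 18.6 FPKM in GM-CSF cDC2s, without overlap (as for 64.9% of all genes tested). It was not called (log2 fold change 1.94 ± 1.16 SE, adjusted p = 0.268). The SE is pooled over all groups and takes in the DC-X libraries, where Cebpb was at 79.4 and 0.985 FPKM.

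Both chains of the receptor for the injected cytokine were present in both populations. Csf2ra, its alpha chain, was at 236 and 232 FPKM in P-I and 115 and 172 FPKM in GM-CSF cDC2s (log2 fold change 0.73, 95% interval 0.17 to 1.29, adjusted p = 0.0608). Csf2rb, the signalling chain, was at 109 and 83.9 FPKM and 73.7 and 72.6 FPKM (log2 fold change 0.38, 95% interval -0.18 to 0.94, adjusted p = 0.331). Neither was called, and both were above 70 FPKM in every library of the comparison. Without GM-CSF cDC2 replicate 2 Csf2ra was called (log2 fold change 1.02, adjusted p = 0.0327). Of 24 growth factor receptor genes 5 were higher and 3 lower, beside 9.80% higher and 6.24% lower over all genes. Csf3r, the receptor for granulocyte colony-stimulating factor, was at 28.8 and 36.3 FPKM and 0.903 and 0.390 FPKM (log2 fold change 4.36 ± 0.28 SE, adjusted p = 3.12e-07). Il21r was at 2.44 and 3.23 FPKM and 69.4 and 38.1 FPKM (log2 fold change -3.78 ± 0.39 SE, adjusted p = 1.75e-05). Of 16 genes of the STAT5 pathway, which carries the GM-CSF signal, 0 were higher and 3 lower, with 0 to 5 lower in the fits without 1 library (0 without GM-CSF cDC2 replicate 1, 5 without its replicate 2 and 1 without either P-I library).

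Chemokine receptors set the populations apart in both directions, with 9 of 19 higher and 5 lower (3 lower without GM-CSF cDC2 replicate 2 and 2 without P-I replicate 1). Ccr2, Cx3cr1 and Ccr1 were higher (log2 fold changes 7.11, 5.46 and 2.54), whereas Ccr6 and Ccr7 were lower (-4.38 and -4.15). Of these, only Ccr7 was also called between P-IV and DC-Xs, as given above. Ccr6, the receptor for CCL20, was at 1.29 and 0.431 FPKM in P-I and 33.8 and 39.9 FPKM in GM-CSF cDC2s (adjusted p = 1.81e-06). Cx3cr1 was at 79.7 and 94.2 FPKM and 0.656 and 1.40 FPKM (adjusted p = 1.42e-07). Among 15 chemokine genes 4 were higher and 2 lower (0 or 1 lower in each fit without 1 library). Ccl9 was at 189 and 256 FPKM in P-I and 14.4 and 8.33 FPKM in GM-CSF cDC2s (log2 fold change 4.20 ± 0.27 SE, adjusted p = 3.12e-07), and Ccl6 at 1021 and 1121 FPKM and 179 and 133 FPKM (2.78 ± 0.23 SE, adjusted p = 2.42e-06). Both were far lower in control cDC2s, at 2.91 and 16.9 FPKM on average, than in GM-CSF cDC2s (log2 differences 1.62 and 3.12, adjusted p = 0.00393 and 2.71e-05).
Of 15 cytokine and mediator genes 6 were higher and 1 lower (0 without GM-CSF cDC2 replicate 1 and 2 without its replicate 2). Tnfsf13, which encodes the B cell factor APRIL, was at 50.9 and 54.7 FPKM in P-I and 0.764 and 0.197 FPKM in GM-CSF cDC2s (log2 fold change 5.21 ± 0.41 SE, adjusted p = 1.82e-06). Il1rn, the antagonist of interleukin 1, was at 34.9 and 29.1 FPKM and 3.27 and 1.90 FPKM (log2 fold change 3.23 ± 0.34 SE, adjusted p = 2.15e-05).

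Of the complement and coagulation genes, 13 of 24 were higher in P-I and 4 lower, and of the matrix and protease genes 12 of 20 were higher and 4 lower, beside 9.80% higher and 6.24% lower over all genes. The lower counts dropped to 2 in both lists without GM-CSF cDC2 replicate 1 or P-I replicate 2, and in the complement list without P-I replicate 1. C3, the central complement protein, was at 46.5 and 84.7 FPKM in P-I and 0.870 and 0.253 FPKM in GM-CSF cDC2s (log2 fold change 5.38 ± 0.35 SE, adjusted p = 3.98e-07). F10, coagulation factor X, was at 42.4 and 64.6 FPKM and 0 and 0.0742 FPKM (log2 fold change 5.69 ± 0.35 SE, adjusted p = 2.61e-07). F7, factor VII, was listed at 0 in both cDC2 libraries and at 10.2 and 11.4 FPKM in P-I (adjusted p = 4.55e-05). C1qc, one chain of the complement starter C1q, went the other way, at 1.27 and 1.86 FPKM in P-I and 24.6 and 11.5 FPKM in GM-CSF cDC2s (log2 fold change -2.81 ± 0.58 SE, adjusted p = 0.00381). Beside this, markers of red pulp macrophages, among which C1q chains are counted, were lower in P-I for 7 of 13 genes tested and higher for 2. Both counts dropped in fits without 1 library. All 14 listed, tested or not, had a summed FPKM of 218 and 240 in P-I and 412 and 406 in GM-CSF cDC2s. Vcam1, one of them, was at 27.5 and 16.5 FPKM in GM-CSF cDC2s, and the part of macrophages in these values was not tested. Of the matrix genes, Ecm1 was at 92.5 and 76.3 FPKM in P-I and 1.42 and 0.660 FPKM in GM-CSF cDC2s (log2 fold change 5.41 ± 0.34 SE, adjusted p = 2.88e-07). Mmp12, macrophage elastase, was lower, at 5.91 and 3.69 FPKM and 39.9 and 36.3 FPKM (log2 fold change -2.78 ± 0.28 SE, adjusted p = 1.30e-05), and averaged 331 FPKM in P-IV.

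**Figure D4:**
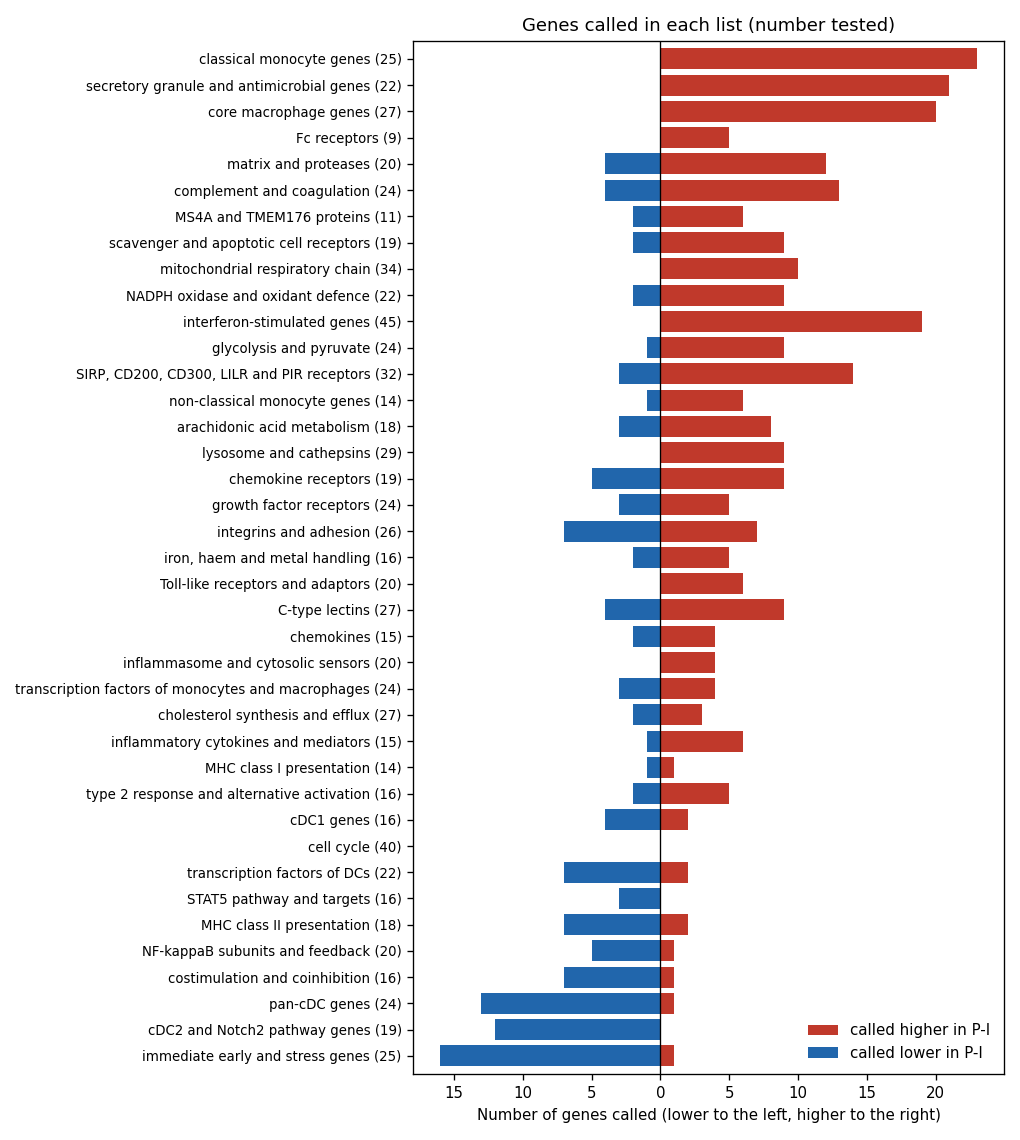
Number of tested genes called higher (red, to the right) and lower (blue, to the left) in P-I than in GM-CSF cDC2s for 39 gene lists, with the number tested beside each name and the lists in the order of their median log2 fold change. Classical monocyte and granule genes stand at the top with 23 of 25 and 21 of 22 higher, and early stress genes and Notch2-dependent cDC2 genes at the bottom with 16 of 25 and 12 of 19 lower.

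Of 45 interferon-stimulated genes 19 were higher and 0 lower, with a median log2 fold change of 0.84. Ifi204, a sensor of DNA, was at 75.9 and 108 FPKM in P-I and 3.86 and 2.43 FPKM in GM-CSF cDC2s (log2 fold change 4.48 ± 0.52 SE, adjusted p = 4.37e-05). Slfn1, a member of the Schlafen family, was at 113 and 132 FPKM and 3.005 and 2.15 FPKM (log2 fold change 5.12 ± 0.41 SE, adjusted p = 1.97e-06). Ifitm3, which blocks viral entry, was at 1593 and 1803 FPKM and 177 and 229 FPKM (log2 fold change 3.07 ± 0.42 SE, adjusted p = 1.67e-04). Irf7, a factor that amplifies interferon production, was at 111 and 149 FPKM in P-I and 82.02 and 86.4 FPKM in GM-CSF cDC2s and was not called (log2 fold change 0.61, adjusted p = 0.0933).

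Enzymes of lipid mediators also divided. Of 18 genes of arachidonic acid metabolism 8 were higher (5 without P-I replicate 2) and 3 lower. Ltb4r1, the receptor for leukotriene B4, was at 253 and 234 FPKM in P-I and 8.96 and 4.24 FPKM in GM-CSF cDC2s (log2 fold change 5.08 ± 0.27 SE, adjusted p = 1.04e-07). Ptgir, the prostacyclin receptor, was at 41.5 and 27.4 FPKM and 0.346 and 0.107 FPKM (log2 fold change 4.83 ± 0.26 SE, adjusted p = 1.04e-07). Ptger3, a receptor for prostaglandin E2, was lower, at 2.57 and 3.98 FPKM and 74.6 and 96.2 FPKM (log2 fold change -4.35 ± 0.28 SE, adjusted p = 3.12e-07). The inducible cyclooxygenase gene Ptgs2 was also lower, at 1.34 and 4.46 FPKM and 50.2 and 20.1 FPKM (log2 fold change -3.20 ± 0.53 SE, adjusted p = 7.22e-04).
In metabolism, 9 of 24 glycolysis and pyruvate genes were higher (5 without GM-CSF cDC2 replicate 1) and 1 lower. Aldoa, aldolase A, was at 534 and 549 FPKM in P-I and 80.4 and 98.3 FPKM in GM-CSF cDC2s (log2 fold change 2.59 ± 0.19 SE, adjusted p = 7.45e-07). The lower gene was Slc2a3, the glucose transporter GLUT3, at 1.98 and 2.06 FPKM and 36.98 and 33.2 FPKM (log2 fold change -3.58 ± 0.22 SE, adjusted p = 2.82e-07). Of 34 genes of the mitochondrial respiratory chain 10 were higher (5 without GM-CSF cDC2 replicate 1) and 0 lower. With the trend of the libraries on transcript length removed, 2 were higher, and over all genes the shortest 20% of transcripts, up to 1509 bases, had a median log2 fold change of 0.27. Of 22 genes of the NADPH oxidase and oxidant defence 9 were higher and 2 lower, led by Gsr, glutathione reductase, at 257 and 271 FPKM and 16.4 and 12.4 FPKM (log2 fold change 4.11 ± 0.25 SE, adjusted p = 2.61e-07). Slc11a1, which pumps metal ions out of phagosomes, was at 65.4 and 63.2 FPKM and 4.09 and 2.06 FPKM (log2 fold change 4.05 ± 0.38 SE, adjusted p = 6.51e-06), whereas the iron exporter ferroportin, Slc40a1, was lower (-2.77 ± 0.51 SE, adjusted p = 0.00162). Slc40a1 stood at 1.84 and 2.44 FPKM in P-I and 24.2 and 17.1 FPKM in GM-CSF cDC2s. Like C1qc and Vcam1 it was higher in cDC2 replicate 1 than in replicate 2. The part of macrophages in its value was not tested. Of 29 lysosome genes 9 were higher and 0 lower. Of 40 cell cycle genes 0 were called in limma in either direction, and 3 had an unadjusted p under 0.05. Without GM-CSF cDC2 replicate 1, or with quantile normalization, 3 were lower.

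Immediate early and stress genes were lower in P-I, 16 of 25 with 1 higher (0 without P-I replicate 2 or either GM-CSF cDC2 library) and a median log2 fold change of -2.42, the lowest of the lists. These genes respond within minutes to handling of cells as well as to signals in tissue. Fos was at 229 and 412 FPKM in P-I and 1878 and 1675 FPKM in GM-CSF cDC2s (log2 fold change -2.52 ± 0.34 SE, adjusted p = 1.66e-04). Egr1 was at 9.88 and 27.3 FPKM and 458 and 173 FPKM (log2 fold change -4.01 ± 0.49 SE, adjusted p = 6.68e-05). Hspa1a, the inducible chaperone HSP70, was at 27.3 and 86.6 FPKM and 3149 and 1787 FPKM (log2 fold change -5.57 ± 0.61 SE, adjusted p = 2.76e-05). The groups did not overlap for these 3 genes, as was the case for 64.9% of all genes tested. The libraries of each group were uneven: P-I replicate 2 was above replicate 1, and cDC2 replicate 1 above replicate 2. The summed FPKM of the list was 1721 and 3223 in P-I and 23363 and 12511 in GM-CSF cDC2s. Hspa1b, the neighbouring copy of Hspa1a, had a log2 fold change of -5.71 ± 0.61 (adjusted p = 2.19e-05). These genes are close copies, so the split of reads between them is uncertain. Their promoters are shown because both hold a heat shock motif and are nearly the same: the 150 bases before their annotated starts were identical at 149 positions and different at 1. They lie at chr17:34972157-34972306 (Hspa1a) and chr17:34959239-34959388 (Hspa1b), both on the minus strand of GRCm38.p6 in RefSeq, with a match to the heat shock motif GAANNTTC in capitals.
Hspa1a: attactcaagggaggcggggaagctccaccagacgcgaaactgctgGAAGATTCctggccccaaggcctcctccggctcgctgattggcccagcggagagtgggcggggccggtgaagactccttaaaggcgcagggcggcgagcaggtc
Hspa1b: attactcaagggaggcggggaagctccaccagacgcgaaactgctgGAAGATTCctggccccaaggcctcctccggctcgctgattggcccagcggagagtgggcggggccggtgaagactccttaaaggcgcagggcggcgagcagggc
The match starts 104 bases before the start in both, and the motif was found, on both strands of the 250 bases before the start, in 6.18% of all 9009 promoters, 7.28% of those of higher and 6.85% of those of lower genes.

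Hspa1a averaged 2651 FPKM in DC-Xs and 2991 in control cDC2s, both of the DC gate, and 315 in P-III and 549.6 in P-IV of the CD115-high gate. Between P-IV and DC-Xs the log2 difference was -2.18 ± 0.61 for Hspa1a (adjusted p = 0.0912), -1.49 ± 0.56 for Atf3 (adjusted p = 0.230), -0.74 ± 0.34 for Fos (adjusted p = 0.377) and 0.39 ± 0.49 for Egr1 (adjusted p = 0.854), and none of the 4 was called. Between P-I and P-IV, in the same gate, Hspa1a was lower in P-I (log2 difference -3.46 ± 0.61, adjusted p = 0.00294), as were Fos (-1.25 ± 0.34, adjusted p = 0.0395) and Egr1 (-4.36 ± 0.49, adjusted p = 1.03e-04), while Atf3 was not called (-1.66 ± 0.56, adjusted p = 0.0995). The part of cell preparation in these values was not tested, and for P-I against GM-CSF cDC2s it cannot be told apart from the cell type. Of 20 NF-kB subunits and feedback genes, which respond to many of the same stimuli, 5 were lower (3 without GM-CSF cDC2 replicate 1 or P-I replicate 2) and 1 higher, among the lower ones Tnfaip3, the inhibitor A20 (log2 fold change -2.39 ± 0.41 SE, adjusted p = 9.42e-04).

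**Figure D5:**
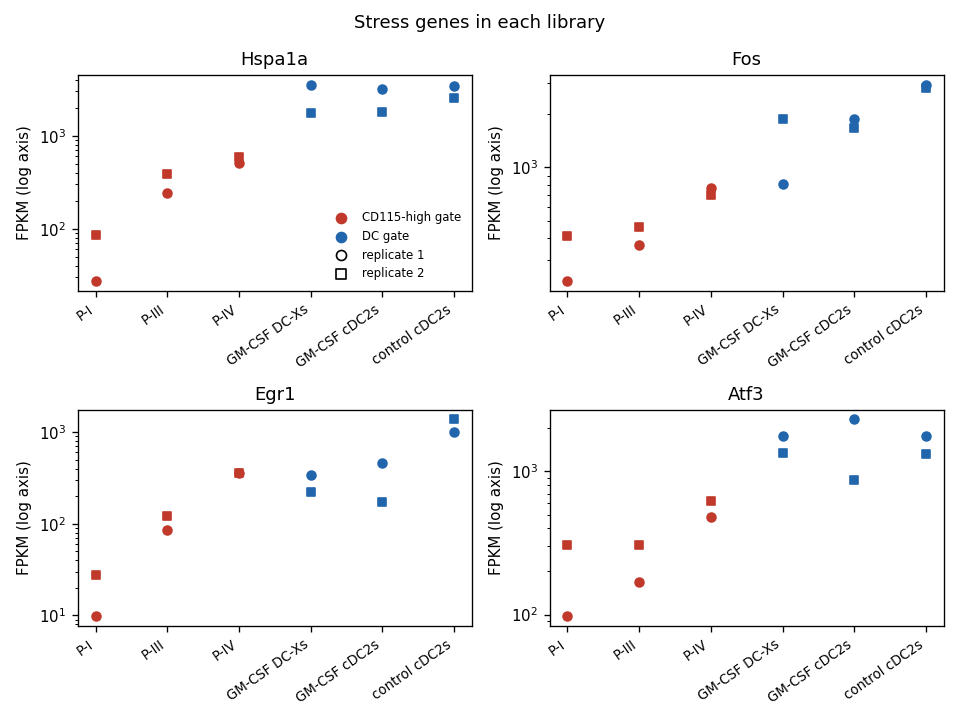
FPKM of Hspa1a, Fos, Egr1 and Atf3 on a log axis, 1 point for each library of P-I, P-III and P-IV (CD115-high gate) and of DC-Xs, GM-CSF cDC2s and control cDC2s (DC gate). Both P-I points lie below both GM-CSF cDC2 points in each panel. P-IV lies between P-I and the groups of the DC gate for Hspa1a, Fos and Atf3.

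Markers of other cells were also counted. The summed FPKM of 9 T cell markers, 8 of them tested, was 37.8 and 21.1 in P-I and 27.96 and 31.04 in GM-CSF cDC2s. Of these, 5 were higher in P-I (2 without GM-CSF cDC2 replicate 2 and 1 without P-I replicate 1), among them Cd3e at 7.17 and 2.61 FPKM against 1.495 and 0.295 FPKM, and 1, Cd5, was lower. The summed FPKM of 10 B cell markers, 8 of them tested, was 72.2 and 30.4 in P-I and 80.1 and 83.2 in GM-CSF cDC2s. Cd22 was lower and 2 were higher, a count that moved up and down in fits without 1 library. Cd79a, part of the B cell receptor, was at 23.05 and 6.04 FPKM in P-I and 0.147 and 0.852 FPKM in GM-CSF cDC2s (log2 fold change 3.16 ± 0.65 SE, adjusted p = 0.00349, and 0.0509 without P-I replicate 1). Of the 4 compared libraries, Cd3e and Cd79a thus stood highest in P-I replicate 1. Cd79a was also called higher in P-IV than in DC-Xs (log2 difference 3.10 ± 0.65, adjusted p = 0.0282). It averaged 16.5 FPKM in P-III, 13.3 in P-IV and 0.660 in DC-Xs. The part of the sorting gate in its value was not tested. NK cell markers summed to 21.8 and 12.0 FPKM in P-I and 25.9 and 19.2 in GM-CSF cDC2s, and those of plasmacytoid DCs to 125 and 127 and 34.0 and 36.7, most of it Bst2 and Smim5, which other cells also make. Basophil, mast cell and eosinophil markers summed to 4.65 and 3.57 FPKM in P-I and 86.6 and 121 in GM-CSF cDC2s, of which Kit made up 69.1 and 110.3 in GM-CSF cDC2s, while Mcpt8 was at 0.691 and 0.451 FPKM and 2.86 and 0.893 FPKM. Of 7 plasma cell markers tested 3 were higher in P-I and 0 lower. All 8 listed had a summed FPKM of 258 and 234 in P-I and 124 and 96.9 in GM-CSF cDC2s, most of it Xbp1, which other secretory cells also make. Erythroid and platelet markers stayed under 4 FPKM in sum in each library. The part of these cells in the values above was not tested.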

How the data were processed

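Splenic populations of untreated mice and of mice given GM-CSF made up 16 libraries, 2 in each of 8 groups. By the study's methods and the submitters' processing notes, libraries came from a SMARTer low-input kit, and the authors ran bcl2fastq 1.8.4, HISAT2 2.1.0 against mouse build mm10 and StringTie 1.3.4d. The table deposited by the authors holds FPKM for 24532 genes, without counts. Depth could be read only where low values formed clear steps. FPKM leaves in place any bias against short or long transcripts that differs between libraries. No library listed a 0 for any of the 737 genes whose median over the libraries was 100 FPKM or more.

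Groups and replicate numbers came from the sample labels. log2(FPKM + 1) was fitted with limma 3.58.1 (trend) in R 4.3.3 over all 16 libraries with 1 mean for each group, which left 8 residual degrees of freedom. Genes entered the fit when at least 2 libraries reached 1 FPKM. The spread is pooled over 8 groups, and the p-values cover no more than the differences among these libraries. SE is that of the log2 fold change. Genes were called at an adjusted p under 0.05 and a log2 fold change of at least 1 in size, after the 2-fold rule of the study. The fit was tested on simulated data. The members and 50 gene lists were chosen with earlier results of these data known, and no list was tested as a set. Named genes were the 12 with the largest change in each direction with a mean of at least 20 FPKM in the higher group and no overlap of libraries, leaving out predicted genes and receptor segments, and members of the lists. Gene coordinates and promoters came from RefSeq (GRCm38.p6), and transcript lengths, found for 99.1% of the genes tested, from GENCODE. Alternatives were another pseudocount, 2 other filters, 2 scalings, other sets of libraries, library weights, a replicate block, each library left out, and removal of the length trend. Python 3.11.15 with pandas 2.3.3 and matplotlib 3.10.9 made summaries and plots.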

Additional observations from a re-analysis of the deposited data

How the results depend on the processing

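The 15 alternatives called 1415 to 2036 genes against 1818, with 53.8% to 62.6% of the calls higher in P-I (61.1% as reported, 53.8% with the length trend removed). The fits without 1 library called 1415 to 1826 genes, 1415 without P-I replicate 2. Of the 122 named genes that were called, 114 were also called under each alternative that fitted more than the 4 compared libraries. Direction turned for 3 named genes, none of them called: Sirpa was at -0.21 and Spi1 at -0.17 on the log2 scale with quantile normalization, and without 1 library Irf4 lay between -0.18 and 0.17 and Sirpa between -0.013 and 0.21. The cause was not tested. Shared replicate numbers were not taken as pairs: deviations of P-I and GM-CSF cDC2s from their group means correlated at -0.20, and over 28 pairs of groups the correlation ran from -0.20 to 0.67, with 10 pairs over 0.1. The fit with a replicate block called 1878 genes, and a block with the numbers crossed, chosen after seeing the data, called 1883. With 2 libraries a group, the spread of a gene within P-I or GM-CSF cDC2s rests on a single difference, and no fit separates the sorting gate from the cell type.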
